A study of Mus musculus with 11 samples.

Results

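Integrins are the receptors through which cells of the vessel wall hold on to the basement membrane and to each other, and 10 integrin genes were followed here through the cells of the mouse cerebral vasculature. They were chosen by symbol, as the 3 beta chains *Itgb1*, *Itgb3* and *Itgb5* and the 7 alpha chains *Itga1*, *Itga5*, *Itga6*, *Itga7*, *Itga8*, *Itga9* and *Itgav*, out of 32287 genes in the count matrices. For every mouse, the unique molecular identifiers (UMIs, each standing for 1 captured mRNA molecule) of each gene were summed over the cells of 8 classes: capillary, arterial, venous and fenestrated endothelial cells (EC), smooth muscle cells (SMC), pericytes, fibroblasts and microglia. Classes were gated on marker genes among which there was no integrin. Levels are given in CPM, the usual scaling of the UMIs of a gene to the total UMIs of its sum. Because the library kit captures the 3′ end of each mRNA and counts molecules, CPM was compared between genes without division by transcript length. Whether gene length adds to the counts was not tested.

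The study asked how a CADASIL variant alters the cells of the cerebral vessels. It profiled 11 untreated mice, 6 R182C-TgN3 and 5 WT-TgN3, from 2 lines that express human *NOTCH3* beside the mouse gene. The R182C-TgN3 line (Tg350 in the labels) has the mutant human gene and the WT-TgN3 control line (Tg100) the normal one. At 6 months there were 3 R182C-TgN3 and 3 WT-TgN3 mice, and at 9 months 3 R182C-TgN3 and 2 WT-TgN3 mice. Brain microvessels were captured on beads carrying an antibody against CD31, an endothelial surface protein, and then dissociated, so endothelium was selected and the other cell types were carried along. No mouse without a transgene was included, and each genotype is 1 transgenic line. Age and batch as labelled could not be told apart, since no batch held mice of both ages. The batch of R182C-TgN3 3 held no other mouse, and so no control.

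An integrin is a pair of 1 alpha and 1 beta chain, and the pair decides which matrix protein is bound. The beta1 chain pairs with most alpha chains. With it, alpha1 binds collagens such as the type IV collagen of basement membranes, alpha6 and alpha7 bind laminins, alpha5 and alpha8 bind proteins with an Arg-Gly-Asp motif such as fibronectin and nephronectin, and alpha9 binds tenascin-C, osteopontin and related proteins. The alphav chain pairs with beta3 or beta5, among others, and recognises vitronectin and the latent form of TGF-beta. In brain vessels, integrins anchor endothelium, pericytes and SMC to their shared basement membrane, and microglia use alphav and beta2 integrins for contact and uptake.

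To show the sequences that lie in front of the 4 chains whose levels the results turn on most, the 250 bases upstream of the transcription start were taken from RefSeq on build GRCm38.p6. Among the 3 beta and 7 alpha chains chosen, *Itgb1* was the most abundant beta chain of all vessel wall classes, *Itgb5* of microglia, *Itga1* was the leading alpha chain of mural cells and led or equalled *Itga6* in endothelium, and *Itga8* that of fibroblasts. Promoter windows were matched for 7 of the 10 genes, and not for *Itgb3*, *Itga6* and *Itga7*. Each sequence is written 5′ to 3′ on the strand of its gene, and capitals mark a GC box (GGGCGG, or CCGCCC where it lies on the other strand), a motif found in 32.7% of 32841 mouse promoters in windows of the same length. The windows are chr8:128685404-128685653 on the plus strand for *Itgb1*, chr16:33829415-33829664 on the plus strand for *Itgb5*, chr13:115101965-115102214 on the minus strand for *Itga1* and chr2:12301945-12302194 on the minus strand for *Itga8*.
Itgb1: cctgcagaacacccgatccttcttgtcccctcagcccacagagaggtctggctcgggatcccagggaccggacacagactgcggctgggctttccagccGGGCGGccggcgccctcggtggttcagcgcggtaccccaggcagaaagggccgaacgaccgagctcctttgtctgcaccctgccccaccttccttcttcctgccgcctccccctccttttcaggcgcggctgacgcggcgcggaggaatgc
Itgb5: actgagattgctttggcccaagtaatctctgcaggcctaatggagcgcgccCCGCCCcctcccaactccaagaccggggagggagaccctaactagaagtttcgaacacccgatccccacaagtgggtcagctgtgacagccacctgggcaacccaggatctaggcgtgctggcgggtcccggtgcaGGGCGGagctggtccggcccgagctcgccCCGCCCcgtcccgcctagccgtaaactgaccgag
Itga1: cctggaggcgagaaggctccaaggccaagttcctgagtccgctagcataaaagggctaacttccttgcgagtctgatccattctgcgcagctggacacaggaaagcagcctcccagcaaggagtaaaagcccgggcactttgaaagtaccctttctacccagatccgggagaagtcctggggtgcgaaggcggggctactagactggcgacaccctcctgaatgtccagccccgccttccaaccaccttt
Itga8: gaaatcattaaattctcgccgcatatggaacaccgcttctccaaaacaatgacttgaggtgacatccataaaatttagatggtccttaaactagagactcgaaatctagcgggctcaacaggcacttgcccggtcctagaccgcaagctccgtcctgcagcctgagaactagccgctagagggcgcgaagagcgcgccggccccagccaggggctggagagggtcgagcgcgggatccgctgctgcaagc
The *Itgb1* window held 1 GC box and the *Itgb5* window 3, while the letters were not found in the windows of *Itga1* and *Itga8*. The GC content of these windows was 68%, 65.2%, 57.6% and 56.4%, against a median of 52.4% over all promoters. The matches are a description of the letters and say nothing of factors bound there.

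The libraries held 17550806 to 64215050 UMIs each, in 66658 barcodes. Of these barcodes, 2538 (3.81%) occurred in more than 1 library, with a median of 1089 UMIs against 4945.5 in the others, and they were left out. The pair of libraries that shared most barcodes, R182C-TgN3 4 and R182C-TgN3 5, had 350 in common. After filters on genes, mitochondrial UMIs and doublets, 57006 cells were kept, of which 39809 (69.8%) fell in a class: 12255 capillary, 4313 arterial, 5797 venous and 1436 fenestrated EC, 1986 SMC, 421 pericytes, 78 fibroblasts and 13523 microglia. Fibroblasts reached the minimum of 10 cells in 2 mice, R182C-TgN3 5 with 15 cells and WT-TgN3 4 with 13, so fibroblast levels rest on n = 2. Of each class's own markers, 9 of 9 were highest in SMC, 10 of 10 in pericytes and 10 of 10 in microglia. For fenestrated EC it was 5 of 5 and for fibroblasts 8 of 9. Arterial EC had 10 of 12, venous EC 7 of 9 and capillary EC 5 of 7. Cells were gated on these same markers, so the counts were largely set by the gates and are no independent check. Markers of 1 class were found at a low level in the others: the summed microglia markers stood at 1.71% to 3.21% of their microglial level in the other 7 classes, and the summed endothelial markers at 0.657% to 2.91% of their capillary level in SMC, pericytes, fibroblasts and microglia. The source of these UMIs was not tested, and the gates limit how many markers of another class a cell may show. Such shares, of markers and members alike, are taken on UMIs pooled over all mice, while the levels given with an SD are means over mice. Below, a member near or under such a share is read as background, which is a reading and not a test.

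*Itgb1* was the main beta chain of the vessel wall, highest in SMC and then in pericytes. In SMC it ran from 979 CPM in the lowest mouse through a median of 1208 to 1687 in the highest (mean 1304 ± 278, SD, n = 11), and in pericytes from 604 through 826 to 1250 (859 ± 188). The 2 classes overlapped in range, and every SMC value lay above every endothelial value. Arterial EC had 535 ± 132 CPM, fibroblasts 613 and 429 in their 2 mice, fenestrated EC 450 ± 102, venous EC 424 ± 81.3, capillary EC 416 ± 90.01 and microglia 199 ± 45.2. In this order, SMC and pericytes, pericytes and arterial EC, and capillary EC and microglia differed in the fit of all classes, while the neighbours from arterial EC through fibroblasts, fenestrated and venous EC to capillary EC did not (edgeR quasi-likelihood test with Benjamini-Hochberg adjustment, adjusted p from 0.151 to 0.845).

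*Itgb5*, the partner of alphav in vitronectin binding, was highest in microglia, where *Itgb1* was lowest, and was also higher in pericytes and SMC than in EC. Microglia held 584 to 787 CPM (median 675, mean 685 ± 64.1), pericytes 214 to 354 (median 314, mean 299 ± 48.6) and SMC 150 to 174 (median 157, mean 159 ± 7.25), with no overlap between the 3. Fibroblasts had 64.5 and 83.8 CPM and fenestrated EC 52.9 ± 16.3. Arterial EC had 11.7 ± 2.77 CPM, capillary EC 8.35 ± 4.24 and venous EC 3.91 ± 1.30. On pooled UMIs these classes stood at 1.83%, 1.36% and 0.622% of the microglial level. Microglia markers stood higher in the same cells, at 2.26%, 3.11% and 1.71%, and *Itgb5* is read as background there. In fenestrated EC, *Itgb5* stood at 8.60% of the microglial level, above the 2.23% of the microglia markers.

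*Itgb3*, the beta chain of the platelet and endothelial vitronectin receptor, was low in every class. It reached 28.1 ± 6.47 CPM in microglia, 38.7 and 20.9 in the 2 fibroblast sums, 20.2 ± 4.07 in fenestrated EC, 9.71 ± 2.46 in arterial EC and 8.30 ± 3.47 in SMC. Capillary EC (1.51 ± 0.701), venous EC (1.51 ± 0.717) and pericytes (2 UMIs in all, in 2 mice) stood at the low end and did not differ from each other (edgeR adjusted p 0.803 and 0.889 for the neighbours). All 11 arterial values, 5.54 to 14.1 CPM, lay above the highest capillary value of 2.45 and below the lowest fenestrated value of 15.1.

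**Figure D1:**
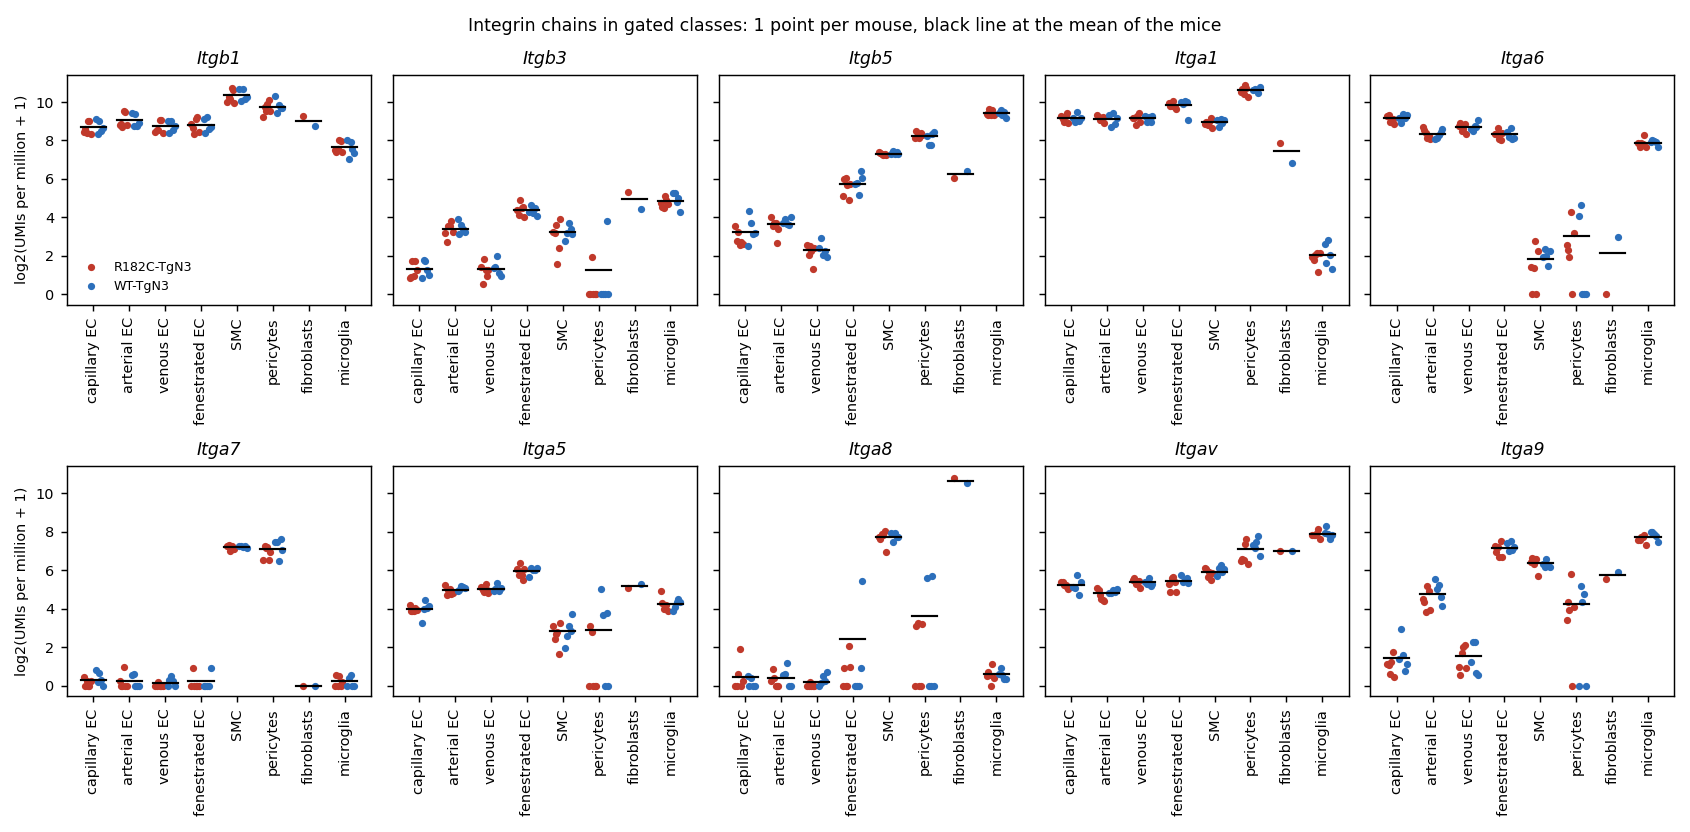
Level of each integrin chain by class, as log2(CPM + 1), with 1 point per mouse (red R182C-TgN3, blue WT-TgN3) and a black line at the mean over mice with at least 10 cells of the class, which for fibroblasts are 2. *Itga6* is high in EC and microglia and low in SMC and pericytes. *Itga7* is near 0 outside SMC and pericytes, and *Itga8* is highest in fibroblasts and SMC.

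Among the alpha chains that bind collagen and laminin, *Itga1* was highest in pericytes, where it ran from 1248 through a median of 1582 to 1890 CPM (1561 ± 187). Fenestrated EC followed with 913 ± 155, and no pericyte value overlapped with the fenestrated values of 527 to 1075. Capillary (575 ± 78.0), venous (566 ± 74.1) and arterial EC (557 ± 86.2) and SMC (491 ± 60.3) formed a middle group in which neighbours did not differ (edgeR adjusted p 0.709, 0.781 and 0.320). The 2 fibroblast sums held 232 and 112 CPM. Microglia had 3.16 ± 1.45 CPM. On pooled UMIs this was 0.212% of the pericyte level, where pericyte markers stood at 0.210%, and is read as background. The *Itga1* gene (chr13:114953096-115101964 on mm10, minus strand) contains *Pelo* on the same strand, and reads that fall in both cannot be told apart.

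*Itga6*, a laminin receptor chain, separated endothelium from mural cells. Capillary EC had 469 to 655 CPM (median 568, mean 565 ± 66.9), venous EC 414 ± 59.3, arterial EC 322 ± 49.7 and fenestrated EC 319 ± 51.3, and the lowest endothelial value in any mouse was 255. In SMC the gene had 2.60 ± 1.80 CPM (41 UMIs in all) and in pericytes 7.06 ± 8.48 (8 UMIs). On pooled UMIs these were 0.437% and 1.00% of the capillary level, where endothelial markers stood at 1.03% and 2.91%. Mural *Itga6* is thus read as background. Microglia had 236 ± 30.8 CPM, 40.5% of the capillary level against 0.657% for endothelial markers. Arterial and fenestrated EC did not differ (edgeR adjusted p = 0.637), and the other neighbours among the EC and microglia did.

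*Itga7*, the laminin receptor chain known from muscle, was near 0 outside the mural cells. SMC had 127 to 158 CPM (median 150, mean 147 ± 9.13) and pericytes 87.7 to 193 (median 139, mean 137 ± 36.6). The 11 mice together gave 2488 UMIs in SMC and 191 in pericytes, against 11 in capillary, 6 in arterial, 7 in venous and 3 in fenestrated EC, 11 in microglia and 1 in fibroblasts. Relative to the mean, only *Itgb5* varied less than *Itga7* among the mice in SMC. *Mettl7b* overlaps *Itga7* on the opposite strand.

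The 3 alpha chains that recognise the Arg-Gly-Asp motif were each highest in a different class. *Itga8*, a nephronectin receptor chain, stood at 1754 and 1459 CPM in the 2 fibroblast sums, at 124 to 263 in SMC (median 213, mean 212 ± 37.8) and at 11.2 ± 19.3 in pericytes, with 0 UMIs in 6 of 11 pericyte sums. On pooled UMIs (13 in pericytes), *Itga8* was 9.16 CPM in pericytes and 205 in SMC. This 4.46% lay near the 4.68% of SMC markers, and pericyte *Itga8* is read as background. The means over mice give a share above that of the markers. Capillary, arterial and venous EC and microglia had means of 0.132 to 0.499 CPM. In fenestrated EC, 97 of 101 *Itga8* UMIs came from 1 mouse, WT-TgN3 5, in which 41 of 308 fenestrated cells (13.3%) held at least 1, and the other 10 mice had 0 or 1 UMI each.

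*Itga5*, the classical fibronectin receptor chain, was highest in fenestrated EC, at 44.6 to 81.8 CPM (median 64.1, mean 61.7 ± 10.7). It was 31.6 ± 3.76 in venous and 30.8 ± 3.56 in arterial EC, which did not differ (edgeR adjusted p = 0.765), and 14.9 ± 3.07 in capillary EC, whose highest mouse (21.2) lay below the lowest arterial (25.2) and venous (27.3) mouse. Fibroblasts had 32.2 and 38.4 CPM and microglia 18.2 ± 4.62. SMC (6.17 ± 2.80) and pericytes (6.36 ± 9.78, 8 UMIs in all) were at the bottom and did not differ (edgeR adjusted p = 0.330).

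*Itgav*, which serves vitronectin and latent TGF-beta receptors, was detected in every class. Microglia had 195 to 316 CPM (median 229, mean 237 ± 34.6), pericytes 80.5 to 219 (median 143, mean 138 ± 48.7), the 2 fibroblast sums 129 each and SMC 43.4 to 75.4 (mean 59.96 ± 9.61). Pericyte and SMC values did not overlap, and the microglial range, from 195 CPM, overlapped with the pericyte range, up to 219 CPM. The 4 endothelial classes lay between 26.8 ± 4.50 CPM in arterial and 41.7 ± 7.95 in fenestrated EC. Fenestrated, venous and capillary EC did not differ as neighbours (edgeR adjusted p 0.676 and 0.180), and capillary EC were above arterial EC.

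*Itga9*, a receptor chain for tenascin-C and osteopontin, was shared by microglia (157 to 255 CPM, mean 211 ± 30.8), fenestrated EC (103 to 186, mean 143 ± 28.7) and SMC (50.9 to 97.9, mean 81.4 ± 13.9). Fenestrated and SMC values did not overlap. Fibroblasts had 45.1 and 59.3 CPM, arterial EC 26.1 ± 10.3 and pericytes 17.8 ± 16.8. Capillary (1.71 ± 1.72) and venous EC (1.89 ± 1.38) stood at 0.876% and 0.826% of the microglial level, below the 3.11% and 1.71% of the microglia markers, and are read as background, while arterial EC stood at 11.9% against 2.26%.

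Each class could therefore be described by its mix of chains, taken as the share of each gene among the UMIs of the 7 alpha or the 3 beta chains in the same mouse. In pericytes *Itga1* made 83.2% ± 4.26 of the alpha UMIs (SD, n = 11), *Itga7* 7.34% and *Itgav* 7.28%. SMC had 49.0% *Itga1*, 21.1% *Itga8*, 14.8% *Itga7*, 8.11% *Itga9* and 6.06% *Itgav*. Capillary EC divided evenly into 48.1% ± 2.54 *Itga1* and 47.3% ± 2.64 *Itga6*, while in arterial EC the pair stood at 57.7% and 33.5% and in fenestrated EC at 61.2% and 21.6% with 9.70% *Itga9*. Microglia combined 33.6% *Itgav*, 33.4% *Itga6* and 29.9% *Itga9*, and the 2 fibroblast sums had 80.0% and 80.9% *Itga8*. Of the beta UMIs, *Itgb1* made 97.5% in capillary EC, 88.2% in SMC, 73.7% in pericytes and 21.7% in microglia, and *Itgb5* made 75.2% in microglia, 26.2% in pericytes and 11.2% in SMC. These shares leave out the integrin chains that were not among the 10.

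**Figure D2:**
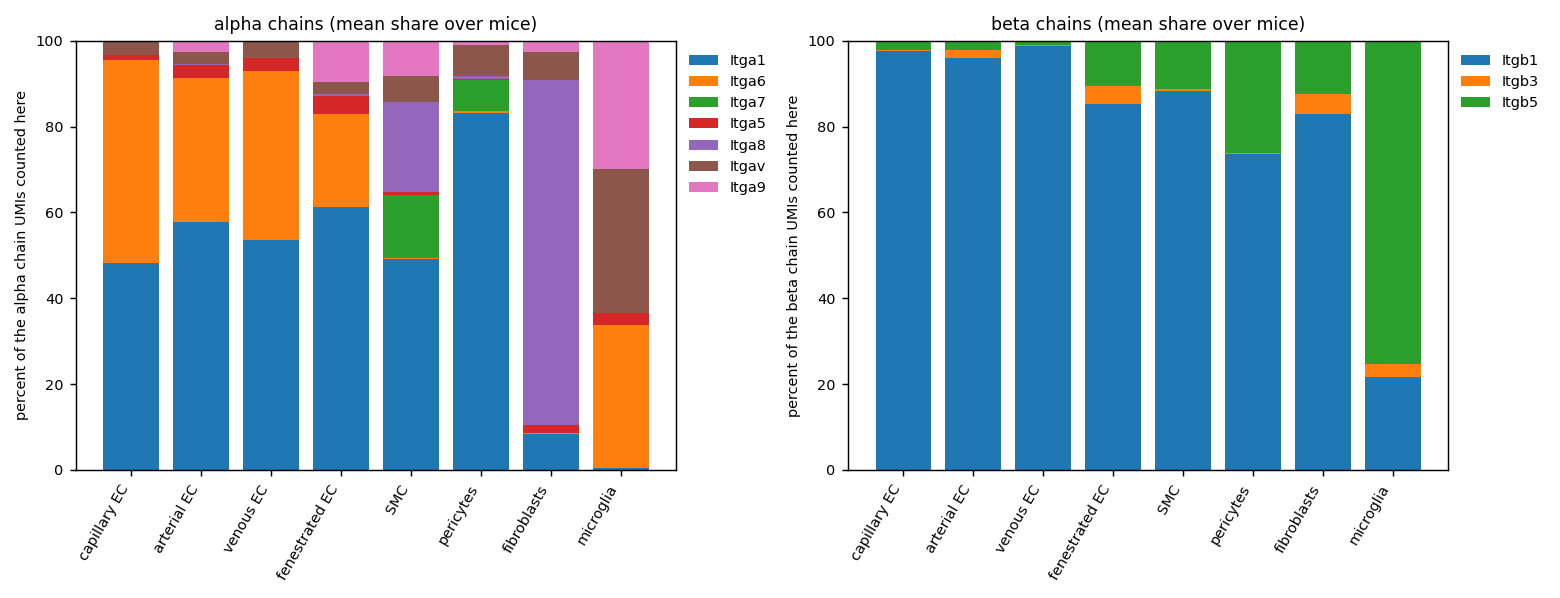
Mean share over mice, in percent, of each alpha chain among the UMIs of the 7 alpha chains (left) and of each beta chain among those of the 3 beta chains (right), by class, from n = 11 mice (n = 2 for fibroblasts). *Itga1* takes 83.2% of the alpha UMIs in pericytes, *Itga8* most of them in fibroblasts, and *Itgb5* 75.2% of the beta UMIs in microglia.

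The endothelial subtypes were compared with capillary EC in 1 fit over all sums with mouse as a block, in which all 10 members and 13449 genes in all were tested. In arterial EC 5 members were higher and 2 lower at an adjusted p under 0.05, in a comparison that called 43.3% of all genes, 20.1% higher and 23.3% lower (median log2 difference of the members 0.30, of all genes -0.05). *Itga9* (log2 3.73, SE 0.21, edgeR adjusted p = 7.31e-27) and *Itgb3* (2.55, SE 0.18) rose most, followed by *Itga5* (1.02, SE 0.09), *Itgb5* (0.43, SE 0.15, edgeR adjusted p = 0.0120) and *Itgb1* (0.33, SE 0.05). *Itga6* (-0.83, SE 0.08) and *Itgav* (-0.44, SE 0.08) were lower. *Itgb5* was at background level in both classes, and without WT-TgN3 5 its call was lost (0.36, edgeR adjusted p = 0.0565). For *Itga1* the interval of the difference was -0.22 to 0.08. Of 12 dissociation genes (immediate early and heat shock genes), 7 were higher and 0 lower in arterial EC, and their part was not tested.

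Venous EC differed less in these genes, with *Itga5* higher (1.05, SE 0.09) and *Itga6* (-0.47, SE 0.08) and *Itgb5* (-1.12, SE 0.15) lower, where 45.9% of all genes were called, 21.9% higher and 24% lower (member median -0.07, all genes -0.02). *Itgb1* had an interval of -0.08 to 0.11 and *Itga1* of -0.19 to 0.11. Venous cells held a median of 10889 UMIs and capillary cells 3959, and in cells of 4000 to 10000 UMIs alone the *Itgb5* difference was -0.37 (edgeR adjusted p = 0.311). *Itgb5* was at background level in both classes. Of the 12 dissociation genes, 12 were higher in venous than in capillary EC, and their part was not tested.

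Fenestrated EC, which line vessels without a blood-brain barrier, had 6 members higher and 1 lower, where 52% of all genes were called, 24.6% higher and 27.4% lower (member median 1.31, all genes -0.07). *Itga9* (6.21, SE 0.18, edgeR adjusted p = 7.42e-46), *Itgb3* (3.62, SE 0.21), *Itgb5* (2.60, SE 0.14), *Itga5* (2.00, SE 0.11) and *Itga1* (0.61, SE 0.08) were higher and *Itga6* (-0.88, SE 0.08) was lower. The difference in *Itga8* (5.01, SE 0.62) was that of 1 mouse: without WT-TgN3 5 it was 0.91 (edgeR adjusted p = 0.464). Astrocyte markers summed to 184 CPM in fenestrated and 41.4 CPM in capillary EC, and 5 of the 12 dissociation genes were higher and 1 lower, whose part in these results was not tested.

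Mural cells, taken as the mean of SMC and pericytes, differed from capillary, arterial and venous EC in 9 of the 10 members, 7 higher and 2 lower, where 61.2% of all genes were called, 27% higher and 34.2% lower (member median 1.26, all genes -0.08). *Itga7* (9.56, SE 0.18), *Itga8* (7.51, SE 0.98), *Itgb5* (4.85, SE 0.10) and *Itga9* (3.13, SE 0.42) had the large differences, of which that of *Itga8* was one of SMC and set against endothelial levels near 0. *Itgav* (1.32, SE 0.09), *Itgb1* (1.201, SE 0.03) and *Itga1* (0.60, SE 0.05) were higher by less. The *Itga1* difference was one of pericytes, since SMC (491 CPM) and arterial EC (557 CPM) did not differ (edgeR adjusted p = 0.320). For *Itga9*, capillary and venous levels are read as background, and arterial EC and pericytes did not differ (edgeR adjusted p = 0.186). *Itga6* (-6.80, SE 0.14) and *Itga5* (-2.03, SE 0.19) were lower. *Itgb3* was not called (0.35, interval -0.81 to 1.51). Of the 12 dissociation genes, 1 was higher and 10 were lower in the mural mean, in which SMC and pericytes lay apart. Their summed level was 19514 to 37509 CPM over mice in SMC and 674 to 9818 in pericytes. In capillary, arterial and venous EC it was 7220 to 21506 CPM, and the part of these genes was not tested.

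SMC and pericytes differed in 8 members, where 38.5% of all genes were called, 23.7% higher and 14.8% lower (member median 0.65, all genes 0.12). *Itga8* (5.00, SE 0.42), *Itgb3* (3.09, SE 0.72), *Itga9* (2.75, SE 0.37), *Itgb1* (1.16, SE 0.06) and *Itga7* (0.65, SE 0.14) were higher in SMC, and *Itga1* (-1.09, SE 0.09), *Itgav* (-0.43, SE 0.15) and *Itgb5* (-0.39, SE 0.13) were higher in pericytes. Between these classes the choice of scaling moved the median of all genes by 0.52: with each sum scaled by its total alone, *Itgb1* was 0.60, *Itga1* -1.66, *Itgav* -0.96 and *Itgb5* -0.93, and *Itga7* was 0.11 and not called (edgeR adjusted p = 0.577). *Itgb3* rested on 2 pericyte UMIs. The immediate early and heat shock genes that rise on dissociation were higher in SMC in 11 of 12 cases, with a summed level of 19514 to 37509 CPM over mice in SMC and 674 to 9818 in pericytes, and their part in these differences was not tested.

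Fibroblasts (n = 2) were compared with mural cells, where 7 members, 3 higher and 4 lower, and 21.5% of all genes were called, 13.5% higher and 7.99% lower (member median 0.29, all genes -0.06). *Itga8* (4.99, SE 0.33), *Itgb3* (2.77, SE 0.69) and *Itga5* (2.51, SE 0.52) were higher and *Itga1* (-2.54, SE 0.22), *Itgb5* (-1.59, SE 0.32) and *Itgb1* (-1.200, SE 0.11) lower. The mural mean takes in pericytes, where *Itga8* is read as background and *Itgb3* and *Itga5* had 2 and 8 UMIs. Against SMC alone, *Itga8* was higher in fibroblasts by 2.49. Of the 12 dissociation genes, 1 was higher and 3 were lower in fibroblasts, and their part was not tested. The seventh member, *Itga7*, had 0 UMIs in both fibroblast sums, so no fold is given. Without R182C-TgN3 5 the call of *Itgb3* was lost (2.33, edgeR adjusted p = 0.0631), and without WT-TgN3 4 that of *Itga5* (2.49, edgeR adjusted p = 0.0640). The remaining mouse is then assumed to vary like those of the other classes.

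Microglia differed from the mean of capillary, arterial and venous EC, SMC, pericytes and fibroblasts in 9 members, 6 higher and 3 lower, where 73.4% of all genes were called, 41.3% higher and 32.1% lower (member median 1.29, all genes 0.06). *Itgb5* (4.55, SE 0.08, edgeR adjusted p = 1.24e-60), *Itga9* (4.17, SE 0.10), *Itgb3* (2.84, SE 0.12), *Itga6* (2.73, SE 0.12), *Itgav* (2.21, SE 0.05) and *Itga5* (0.38, SE 0.12) were higher, and *Itga1* (-7.13, SE 0.14), *Itga8* (-3.48, SE 0.58) and *Itgb1* (-1.40, SE 0.04) lower. The mean over the wall takes in SMC and pericytes, where *Itga6* was at background level and *Itga5* low. It also takes in fibroblasts and SMC, where *Itga8* was highest. Microglia and capillary EC did not differ in *Itga8* (microglia minus capillary 0.96, edgeR adjusted p = 0.288). Against single classes, *Itga6* was lower in microglia than in capillary (capillary minus microglia 1.08, SE 0.08), venous (0.61, SE 0.08) and arterial EC (0.25, SE 0.08), and *Itga5* was lower than in arterial (0.54, SE 0.09) and venous EC (0.58, SE 0.08). Of the 12 dissociation genes, 12 were higher in microglia, and their part was not tested. Scaling by totals moved the median of all genes by 0.21 here and left *Itga5* at 0.16 (edgeR adjusted p = 0.232), and without R182C-TgN3 1 *Itga5* was 0.22 (edgeR adjusted p = 0.0938). *Itga7* could not be estimated in this comparison, which takes in the fibroblast sums, both with 0 of its UMIs.

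**Figure D3:**
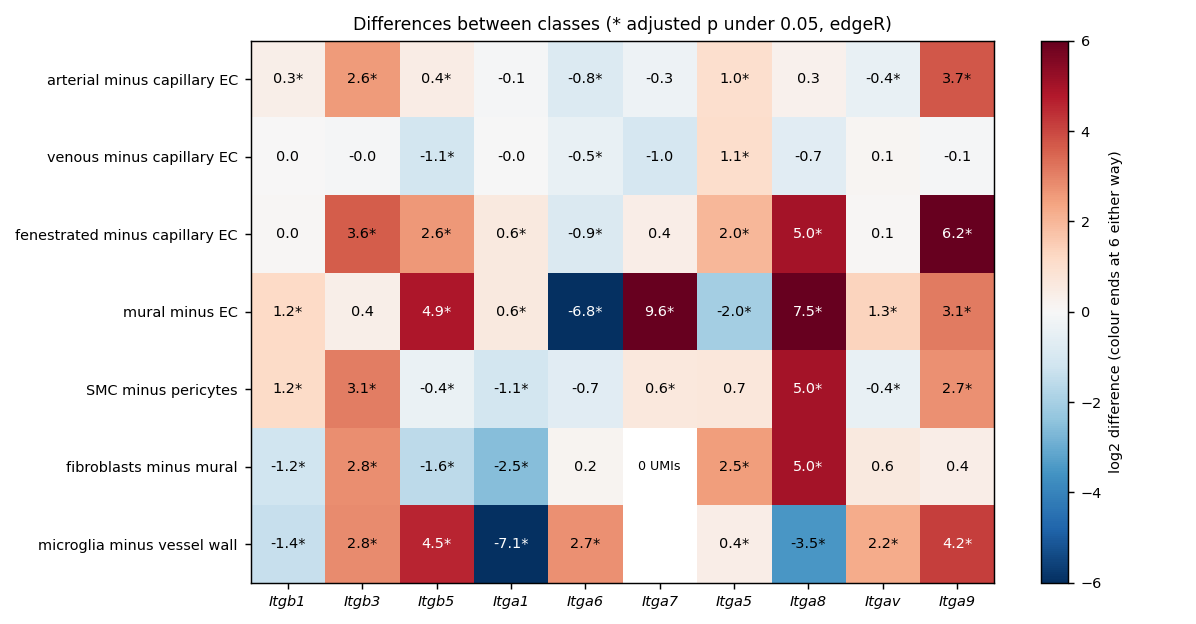
Log2 differences of each chain (columns) in the 7 class comparisons (rows) from the edgeR fit, with an asterisk at an adjusted p under 0.05 and the colour scale ending at 6 in either direction. The row of mural cells minus EC runs from -6.8 for *Itga6* to 9.6 for *Itga7*, and the empty place is *Itga7* in microglia, which could not be estimated.

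The other integrin genes, 17 on a list of which 14 were tested, were placed by the same fit. *Itga4*, a VCAM1 and fibronectin receptor chain, was higher in mural cells than in EC (4.40, SE 0.13) and stood at 306 CPM in pericytes and 52.8 in SMC, and *Itga10*, a second collagen receptor chain, was higher in mural cells as well (3.33, SE 0.23). *Itga3*, a laminin receptor chain, was higher in venous than in capillary EC (1.54, SE 0.11) and in SMC than in pericytes, with 522 UMIs in all SMC and 1 in all pericytes. *Itgb4*, the laminin-binding partner of alpha6, was higher in arterial than in capillary EC (2.92, SE 0.17) and lower in mural cells than in EC, with 8 UMIs in SMC and 0 in pericytes. *Itgb8*, a beta chain that activates TGF-beta with alphav, was higher in fibroblasts, at 68.9 CPM, than in mural cells, where SMC had 1.34 CPM and pericytes 0 UMIs. The leukocyte chains *Itgb2* (7.98, SE 0.12), *Itgad* (7.79, SE 0.25) and *Itgam* (7.56, SE 0.11) were higher in microglia, with *Itgam* at 440 CPM, more than *Itga6*, *Itgav* or *Itga9*. In the mural comparison 2 of the 14 were higher and 5 lower, where 27% of all genes were higher and 34.2% lower, and in the microglial one 5 were higher and 5 lower, where 41.3% and 32.1% of all genes were.

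The matrix ligands, 32 genes of which 31 were tested, showed the partners of these receptors in the same cells. Of these, 17 were higher and 7 lower in mural cells than in EC, where 27% of all genes were higher and 34.2% lower (median 1.27, all genes -0.08), among them *Vtn* (vitronectin; 8.62, SE 0.15), *Lama2* (a laminin alpha chain; 8.29, SE 0.12) and *Col1a2* (7.91, SE 0.20) higher and *Fn1* (fibronectin; -5.41, SE 0.15) lower. *Vtn* stood at 11901 CPM in pericytes and 184 in SMC, and *Fn1* at 667 CPM in capillary EC, 817 in arterial EC and 14.7 in fenestrated EC. In arterial EC 16 ligand genes were higher and 3 lower than in capillary EC (20.1% and 23.3% of all genes), led by *Fbln5* (fibulin-5; 7.92, SE 0.34) and *Npnt* (nephronectin; 5.72, SE 0.13), and in fenestrated EC 17 were higher and 2 lower (24.6% and 27.4% of all genes), led by *Ltbp1* (a TGF-beta binding protein; 6.70, SE 0.20). SMC exceeded pericytes in *Thbs1* (thrombospondin-1), with 1857 UMIs in SMC and 0 in pericytes (a count of 0 allows up to 2.11 CPM over all pericytes, for counting error only), and in *Npnt*, with 1127 and 1. Microglia were lower in 22 and higher in 3, where 32.1% of all genes were lower and 41.3% higher. Of the 3 that were higher, *Spp1* (osteopontin; 3.65, SE 0.27) led. In fibroblasts *Col1a1* stood at 456 CPM and *Lama1* at 233 CPM, both with 0 UMIs in pericytes.

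The adaptors that couple integrin tails to actin, 30 genes of which 29 were tested, were higher in microglia than in the wall in 11 cases and lower in 15, where 41.3% of all genes were higher and 32.1% lower. *Fermt3* (kindlin-3; 7.33, SE 0.10) and *Ptk2b* (6.48, SE 0.12) were higher there and *Fermt2* (kindlin-2; -7.43, SE 0.10) and *Parva* (alpha-parvin; -6.90, SE 0.16) lower. Mural cells had more *Tns3* (4.37, SE 0.24) and less *Parvb* (beta-parvin; -6.71, SE 0.12) than EC, with 17 higher and 9 lower, against 27% and 34.2% of all genes (median 0.35, all genes -0.08). SMC exceeded pericytes in *Actn1* (alpha-actinin; 4.32, SE 0.13) and *Lims2* (4.26, SE 0.28) and had less *Ptk2* (focal adhesion kinase; -1.86, SE 0.10). In arterial EC 10 adaptors were higher and 7 lower than in capillary EC (20.1% and 23.3% of all genes), with *Fermt3* (1.78, SE 0.15) at the top and *Src* (-1.95, SE 0.18) at the bottom.

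Across mice, *Itgb1* divided the libraries in the same way in every class. In the 4 libraries with the fewest UMIs, 17550806 to 31933696 against 42317151 and more (R182C-TgN3 4 and 5 and WT-TgN3 1 and 3, all of 6 months), capillary EC had 513 to 546 CPM against 322 to 400 in the other 7, SMC 1554 to 1687 against 979 to 1219, pericytes 916 to 1250 against 604 to 859, and microglia 243 to 262 against 131 to 186. The same held in arterial, venous and fenestrated EC, and the ratio of means lay between 1.40 and 1.58 over the 7 classes. Of 5902 genes at 10 CPM or more in each of these classes, *Itgb1* was the only 1 (0.0169%) to lie higher without overlap in all 7, while in a single class 0.653% to 6.68% of genes did. The median ratio over genes was 0.99 to 1.03. This division of the libraries by UMIs was chosen after the *Itgb1* values had been seen, so it is a description without a test.

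The 4 libraries with the fewest UMIs came from both genotypes, from both batches of 6 months, and from a male (R182C-TgN3 4) and females (R182C-TgN3 5, WT-TgN3 1 and WT-TgN3 3). Of the mice of 6 months, WT-TgN3 2 shared a batch with R182C-TgN3 4, R182C-TgN3 5 and WT-TgN3 1, and R182C-TgN3 6 shared one with WT-TgN3 3. In capillary EC WT-TgN3 2 had 322 CPM and R182C-TgN3 6 had 325, both in the lower range. With barcodes found in several libraries kept, all 7 classes were again without overlap (ratios 1.39 to 1.58), and in cells of 4000 to 10000 UMIs alone all 6 classes with values in 11 mice were (1.43 to 1.58). The parts of library depth, age, genotype, batch and sex in this division of the libraries were not tested. Of these 4 libraries, R182C-TgN3 4 and 5 and WT-TgN3 3 were also those with the most barcodes shared with other libraries (446, 397 and 442, against 96 to 304 in the others). Among the other 9 members, only *Itgb3* in arterial EC lay higher without overlap (10.7 to 14.1 CPM against 5.54 to 10.5), and *Itga1* in capillary EC overlapped, at 584 to 722 CPM against 475 to 616.

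**Figure D4:**
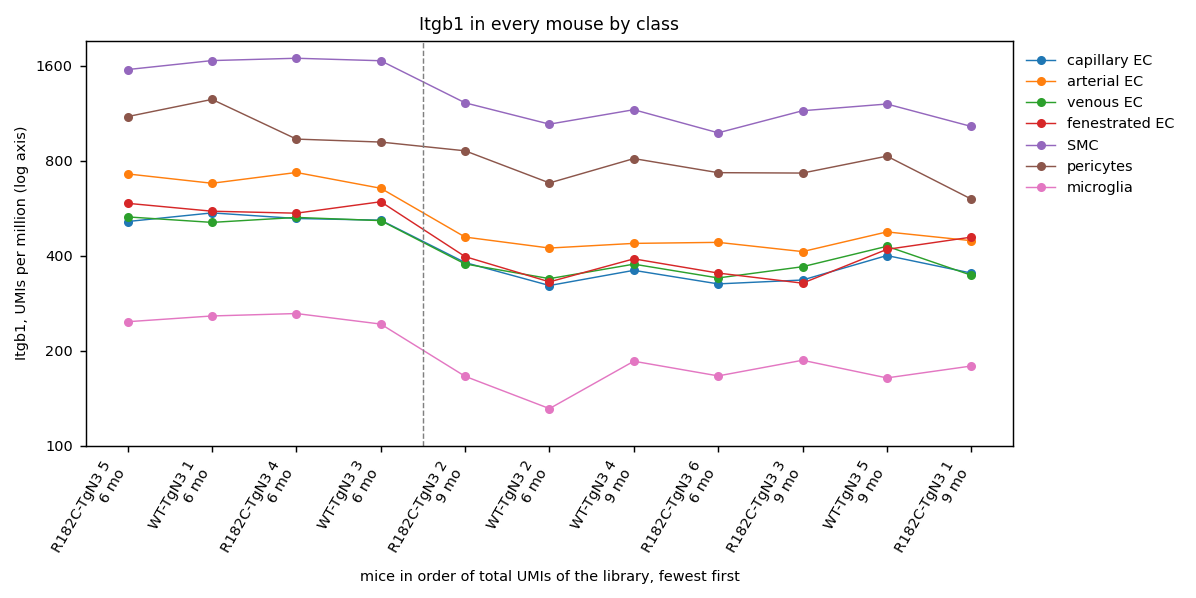
*Itgb1* in CPM (log axis) in each mouse, with mice in order of the total UMIs of their library from fewest to most and a line per class joining the mice only to guide the eye. The 4 libraries to the left of the dashed line lie above the other 7 in every class shown, by 1.40 to 1.58 times on average.

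The genotype comparison began with the transgene, which served as a check of the labels. Human *NOTCH3* in SMC ran from 197 through 237 to 368 CPM in the 6 R182C-TgN3 mice and was 18.6, 62.7, 18.1, 70.6 and 39.0 CPM in the 5 WT-TgN3 mice. In SMC it was higher in R182C-TgN3 (log2 2.46, SE 0.25, edgeR adjusted p = 1.38e-05), and in pericytes too (1301 ± 337 against 450 ± 81.7 CPM, log2 1.56, SE 0.19, edgeR adjusted p = 8.38e-06). Mouse *Notch3* did not differ in SMC (-0.08, interval -0.31 to 0.15) or pericytes (0.08, interval -0.23 to 0.39). The variant and the higher level of the human transcript therefore cannot be told apart.

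No member was called between R182C-TgN3 and WT-TgN3 in any of the 7 classes with enough mice, by edgeR or by DESeq2, and the lowest adjusted p among them was 0.89. The share of all genes called was 0% in capillary, arterial, venous and fenestrated EC and microglia, 0.0117% in SMC and 0.0677% in pericytes, the 1 gene in each of the last 2 being human *NOTCH3*. At an unadjusted p under 0.05 the shares were 2.15%, 1.78%, 1.25%, 3.39%, 1.24%, 2.77% and 5.35% in the same order. Of the members, 6 passed the low-count filter in capillary EC, 8 each in arterial, venous and fenestrated EC, SMC and microglia, and 5 in pericytes, and the only 1 below an unadjusted p of 0.05 was *Itgav* in pericytes. None of the other integrin, ligand or adaptor genes was called either.

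In SMC, the cells that degenerate in CADASIL, the 8 members tested differed by -0.09 to 0.15 on the log2 scale. *Itgb1* was 979 through 1185 to 1687 CPM in R182C-TgN3 and 1659, 1043, 1657, 1159 and 1208 CPM in the 5 WT-TgN3 mice (difference -0.05, interval -0.37 to 0.26), so the groups overlapped fully. *Itga8* ran from 124 through 216 to 263 CPM in R182C-TgN3 and was 241, 176, 244, 213 and 210 CPM in WT-TgN3 (-0.02, interval -0.31 to 0.27). *Itga7* (-0.02, interval -0.23 to 0.19), *Itgb5* (-0.03, interval -0.24 to 0.19) and *Itga1* (-0.05, interval -0.29 to 0.18) had the narrowest intervals. *Itga9* was 0.15 (interval -0.13 to 0.42), *Itgav* -0.09 (interval -0.36 to 0.18) and *Itgb3* 0.00 (interval -0.64 to 0.63).

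In pericytes *Itgav* ran from 80.5 through 93.1 to 199 CPM in R182C-TgN3 and was 158, 143, 175, 219 and 107 CPM in WT-TgN3. It was lower in R182C-TgN3 by an estimate of -0.66 (interval -1.21 to -0.11, unadjusted p = 0.0214 and adjusted p = 0.89 by edgeR), with overlap, since R182C-TgN3 4 and 5 lay within the control range. The whole of pericytes gave 167 *Itgav* UMIs, and 13 to 103 cells per mouse. *Itga1* (-0.02, interval -0.29 to 0.25) and *Itgb1* (-0.12, interval -0.47 to 0.23) in pericytes had the narrower intervals, while *Itga7* (-0.23, interval -0.75 to 0.30) and *Itgb5* (0.26, interval -0.12 to 0.63) were less well determined. In simulated sums of the same depth, 5% of genes changed by 1 log2 unit were recovered in pericytes, 43% in SMC, 54% in capillary EC and 58% in microglia. Of genes changed by 2 log2 units, 34% were recovered in pericytes, 97% in SMC and 100% in capillary EC and microglia. The simulated sums had the same dispersion set for every gene, not that of the data. Genes lost to the low-count filter counted as not recovered. The shares are therefore not the recovery to be had for the members tested.

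In endothelium, *Itga6* differed by -0.03 in capillary EC (interval -0.21 to 0.16), 0.06 in arterial (interval -0.20 to 0.32), -0.03 in venous (interval -0.26 to 0.21) and 0.09 in fenestrated EC (interval -0.24 to 0.41). *Itgb1* and *Itga1* had estimates between -0.04 and 0.07 in the 4 endothelial classes. The largest endothelial estimates, *Itgb5* in capillary EC (-0.55, interval -1.21 to 0.11) and *Itga9* in arterial EC (-0.44, interval -0.97 to 0.08), were not called. In microglia the 8 members tested lay between -0.28 for *Itga1*, at background level there, and 0.07 for *Itgb1* (interval -0.27 to 0.40), with *Itgb5* at 0.05 (interval -0.18 to 0.28) and *Itgav* at -0.04 (interval -0.31 to 0.23).

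**Figure D5:**
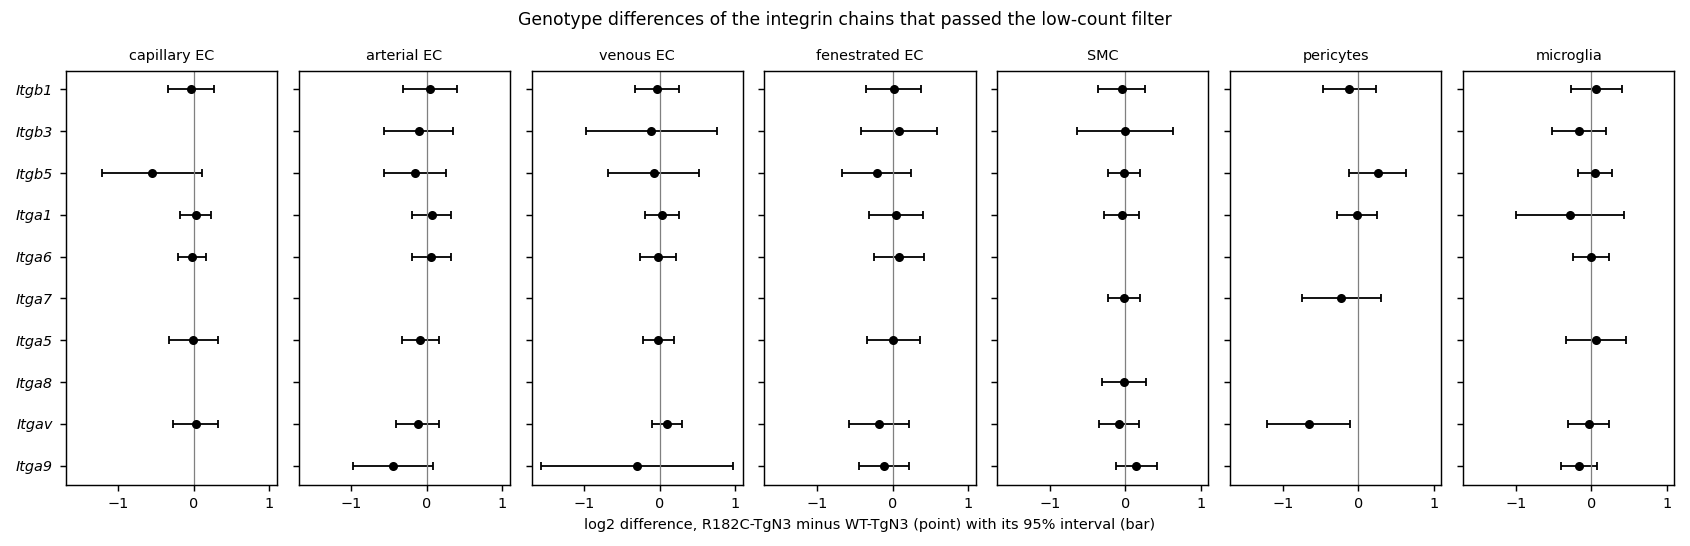
Log2 difference between R182C-TgN3 and WT-TgN3 (point) with its 95% interval (bar) for each chain that passed the low-count filter, by class, from the edgeR fits of 6 and 5 mice. All intervals but that of *Itgav* in pericytes (-1.21 to -0.11) include 0.

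Whether the genotype difference changed between 6 and 9 months was tested in capillary EC, SMC, pericytes and microglia with 1 fit of the 4 groups each, and no member was called in any of the 4 (lowest adjusted p 0.993 by edgeR, with 0% of all genes called in each and 2.78%, 2.58%, 4.44% and 2.28% below an unadjusted p of 0.05). In SMC the difference at 9 months minus that at 6 months was 0.02 for *Itgb1* (interval -0.58 to 0.63), 0.19 for *Itga8* (interval -0.43 to 0.81) and -0.06 for *Itga1* (interval -0.57 to 0.45). The lowest unadjusted p was that of *Itgb5* in capillary EC (1.45, interval 0.27 to 2.63, unadjusted p = 0.0196 and adjusted p = 1.00 by edgeR), where the gene is read as background. With 2 WT-TgN3 mice at 9 months these intervals were wide.

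Within an age, no member was called between the genotypes either, by edgeR in the same 4 fits. At 6 months the shares of all genes called in capillary EC, SMC, pericytes and microglia were 0%, 0.0216%, 0.227% and 0.0087%, and at 9 months 0%, 0%, 0.0453% and 0.0087%. At an unadjusted p under 0.05 they were 2.5%, 3%, 5.94% and 2.55% at 6 months and 2.62%, 2.32%, 5.3% and 1.63% at 9 months. Members below that level at 6 months were *Itgb5* (-1.27, interval -2.10 to -0.44) and *Itga9* (-1.69, interval -3.15 to -0.24) in capillary EC, both read as background there, and *Itga9* in microglia (-0.32, interval -0.63 to -0.01). At 9 months it was *Itgav* in pericytes (-0.93, interval -1.75 to -0.11), against -0.22 (interval -0.97 to 0.53) at 6 months, and the difference between the ages was not called (-0.71, interval -1.81 to 0.39).

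The genes whose level followed 9 of the chains most closely over the 79 sums of mouse and class were named by the Pearson correlation of their log2 CPM. The points share libraries and are spread mainly by class, so the values are a description. *Itga7* went with *Slc38a11* (r = 0.99), *Cap2* and *Rasl12*, *Itga1* with *Arhgap29* (0.98), *Grb10* and *Ebf1*, and *Itgb5* with *Inpp4b* (0.96), *Dock10* and *Parp8*. *Itga6* went with *Pik3r6* (0.95), *Lmo2* and *Afap1l1*, *Itgav* with *Pik3r1* (0.95), *Pag1* and *Mitf*, *Itgb1* with *Prkar1a* (0.94), *Tpm1* and *Map3k20*, and *Itga8* with *Gsn* (0.94), *Alx4* and *Ebf2*. The closest genes of *Itga9* (*Synpo*, 0.86) and *Itga5* (*Nav1*, 0.84) were less close.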

How the data were processed

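Vessel fragments of 11 mice were profiled by droplet single-cell RNA sequencing of mRNA 3′ ends. The authors deposited raw UMI counts per gene and cell, made with Cell Ranger 7.0.0 on the mouse mm10 reference with human *NOTCH3* added, and the barcode lists they come with. Cells were required to show 500 genes or more and a mitochondrial share of UMIs of 10% or less. Barcodes found in more than 1 library were left out, and 2897 doublets were removed by a simulation-based score (30 components, 50 neighbours, 2000 variable genes). Cells were gated by markers, and raw counts were summed per mouse and class with at least 10 cells.

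Sums were tested with edgeR 4.0.16 in R 4.3.3 (quasi-likelihood F test, TMM scaling, filterByExpr, two-sided, Benjamini-Hochberg over all genes tested, call at an adjusted p under 0.05), with mouse as a block between classes. Following the study, the fits omitted ribosomal and mitochondrial genes and predicted genes named Gm or Rik. From its microglia the study also excluded a control sample, for a polarized landscape, whereas all 5 WT-TgN3 mice were kept here. CPM values use all UMIs of a sum. Differences are log2, and intervals are 95% intervals of the fit. Each mouse is a separate animal. DESeq2 1.42.0 served as an alternative. The test was tried on simulated counts.

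All 10 members are named, with the 3 genes of largest rise and of largest fall in each other list at most, and up to 3 genes most like each member, which for *Itgb3* are not reported here. The members, gene lists and markers were chosen with earlier results of these data known. Paired by age and replicate number, mice deviated together (r over 0.1 in all 5 pairs) in microglia, and in 0 to 3 pairs in the other classes. Both mice of each pair carried the same batch label. The labels do not say that a replicate number marks a shared litter or day. No test of genotype was made in fibroblasts, with 1 mouse per genotype. Batch and sex were not in the main fits and were tried as alternatives.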

Additional observations from a re-analysis of the deposited data

Results flagged for a closer look

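Of 106 groups of mice with 4 to 10 values, from members with at least 100 UMIs in the class, 5 held a mouse far from the others. Chance gives about 1 in 20 such groups, and the count is not a test against that rate. *Itga8* in fenestrated EC, with 101 UMIs, passed this floor only through the 97 of WT-TgN3 5, a mouse then flagged. In fenestrated EC, WT-TgN3 5 stood apart in *Itga8* (42.6 CPM, next 0.896) and in *Itga1* (527 CPM, next 966), and R182C-TgN3 5 in *Itga8* (3.18 CPM from 1 UMI, next 0.942). In microglia, R182C-TgN3 1 stood apart in *Itga5* (29.6 CPM, next 18.7) and R182C-TgN3 5 in *Itga6* (308.0 CPM, next 231).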

How the results depend on the processing

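Over 155 recounts of the members called between classes, all were within 1.5 times the main count, and of 1550 member values, called or not, 1524 stayed on the same side of the threshold, 14 lost a call, 12 gained one and 0 called values reversed. Of 50 calls, 41 held in every alternative run. Leaving out 1 mouse at a time gave 7 to 8 calls for SMC minus pericytes, 6 to 7 for arterial, fenestrated and fibroblast comparisons, 8 to 9 for microglia, 9 for mural cells and 3 for venous EC. Between SMC and pericytes, *Itgb5* was not called without R182C-TgN3 2 (-0.33, edgeR adjusted p = 0.0586) or 3 (-0.33, 0.0764), nor *Itgav* without R182C-TgN3 5 (-0.34, 0.0810). In cells of 4000 to 10000 UMIs alone, *Itgav* was -0.10 (0.8291) and *Itgb5* -0.33 (0.268) there. The stricter gate left *Itga8* in fenestrated EC at 1.45 (0.398). The causes were not tested.

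The 175 genotype and 56 genotype-by-age recounts gave 0 calls, with lowest adjusted p 0.717 and 0.218. With the replicate block, pairing mice by age and number, 0 members were called in each class, so the block changed no call. Keeping shared barcodes, the window of cell depth, the minimum of 2 cells, no scaling factors and the depth group of the library were alternatives chosen after seeing the data. The fibroblast and microglia comparisons gave no value with at least 20 cells, with the stricter gate or in the depth window. Few cells limit the genotype comparison in pericytes (421 in all) and left none in fibroblasts (78).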
